A study of Rattus norvegicus with 12 samples.

Results

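Semaphorins, plexins, ephrins, Eph receptors and the FLRT, netrin, Unc5, Slit and Robo proteins were first studied as cues and receptors that steer growing axons, and they were followed here in liver epithelial cells. A probe set entered the group where its single gene symbol began with Sema, Plxn, Epha, Ephb, Efna, Efnb, Flrt, Unc5 or Robo, began with Ntn or Slit before a digit, or was Nrp2. This rule took 97 probe sets of 59 genes, out of 31042 probe sets on the array, of which 20826 carry a single symbol and stand for 14217 genes. Cultures of 2 rat lines were compared. WB311 cells are a tumorigenic line that arose spontaneously from WB-F344 cells, resist rapamycin and double in 15.5 h. WB-F344 cells are a non-tumorigenic diploid epithelial line from the liver of an adult Fischer rat, are sensitive to rapamycin and double in 42 h. Both lines grew in medium with serum and received 50 nM rapamycin or the DMSO vehicle for 24 h, giving WB311 with rapamycin, WB311 with vehicle, WB-F344 with rapamycin and WB-F344 with vehicle, each with 3 arrays from 3 plates. Each line is a single line, so a difference between them is one between WB311 and WB-F344 and not one between tumorigenic and normal lines in general, and growth rate and rapamycin response cannot be told apart from the line. The plates of a group are cultures of one line, so that p-values measure the spread between plates, which may be technical.

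These genes work as matched cues and receptors on neighbouring cells. Secreted class 3 semaphorins bind neuropilins, which lack a signaling tail of their own and act with A-type plexins, while membrane-bound class 4 semaphorins bind B-type plexins directly. Ephrins are held on the membrane, the A class by a lipid anchor and the B class by a transmembrane stretch, and bind Eph receptor tyrosine kinases on the next cell. FLRT proteins bind Unc5 receptors and latrophilins, Unc5 receptors also bind netrins, and Slits bind Robo receptors. Most of these signals reach the actin cytoskeleton, and in epithelia they take part in cell sorting, boundary formation and migration. Among the genes taken, Unc50 and Unc5cl match by symbol only: Unc50 encodes a Golgi membrane protein, and neither encodes a netrin receptor.

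Intensities were normalized by Robust Multiarray Average (RMA) and are given on the linear scale, on which the median of an array was 59.5 to 62.9. A difference in intensity between probe sets is not read as one in RNA level, and "brighter" or "dimmer" only tells the probe sets of a gene apart. The WB-F344 arrays numbered 2 stood apart from the other arrays of their groups. Their log2 difference between the 3′ and 5′ probe sets of Gapdh, a measure of RNA integrity, was 0.17 with rapamycin and 0.34 with vehicle, against -0.12 to -0.04 on the other WB-F344 arrays and -0.11 to -0.04 on all WB311 arrays. The median SD between plates was 0.0642 log2 units in WB311 with rapamycin, 0.0782 in WB311 with vehicle, 0.13 in WB-F344 with rapamycin and 0.154 in WB-F344 with vehicle. Of the hepatic and biliary markers, Krt8 averaged 5608 and 6103 in WB311 with rapamycin and with vehicle and 2314 and 2987 in WB-F344, Krt7 averaged 141 and 76.5 in WB311 and 4853 and 5534 in WB-F344, and Alb, Afp, Hnf4a, Epcam and Cdh1 stayed under 100 in all 4 groups. Krt18 averaged 182 and 247 in WB311 with rapamycin and with vehicle and 19.9 and 23.0 in WB-F344. Krt19 averaged 86.7 and 110 in WB311 and 25.3 and 23.1 in WB-F344, and Ttr was 96.9 to 103 in all 4 groups. The summed hepatic and biliary markers were 6136 to 6945 on the WB311 arrays and 7113 to 9647 on the WB-F344 arrays. This sum joins a lower Krt7 in WB311 with higher Krt8, Krt18 and Krt19. The summed intensity of 8 mesenchymal markers was 13165 to 13865 on the WB311 arrays and 47754 to 66682 on the WB-F344 arrays. Of the endothelial markers only Tek reached 100, in WB311, and of the neuronal and glial markers only Syp and Mbp did, so the defining markers Tubb3, Map2, Snap25, Nefl, Nefm and Gfap were all under 100. Of the leukocyte markers only Cd14 reached 100, and Ptprc did not. In such bulk samples fewer cells of a type and less RNA per cell cannot be told apart.

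Most of the guidance genes lay under the intensity that was taken as the minimum. The minimum for testing, a group average of 100, was reached in some group by 36 of the 97 probe sets, from 26 of the 59 genes. The other 61 probe sets had group means between 10.3 and 88.1, and the 33 genes that they alone stand for were not tested. The share was 37.1% of the guidance probe sets and 45.8% of all probe sets. Of 17 semaphorins, 7 reached 100 (Sema3b, Sema3c, Sema3e, Sema3f, Sema3g, Sema4b and Sema6c), 5 of them secreted class 3 proteins. Plexins were better represented, with 7 of 9 genes counting Nrp2, and Plxnc1 and Plxnd1 below the minimum. Of the 5 ephrins, 4 reached 100 and Efnb3 did not. Only 3 of 12 Eph receptors did, namely Epha2, Ephb3 and Ephb4. Flrt2 and Flrt3 reached 100 and Flrt1 did not. The netrin receptor Unc5b was above the minimum while Ntn1, Ntn5, Unc5a and Unc5c were not. The secreted cue Slit2 was above it while Slit1, Slit3 and its receptors Robo1, Robo2 and Robo3 were not. A value under 100 does not show that an RNA was absent.

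**Figure D1:**
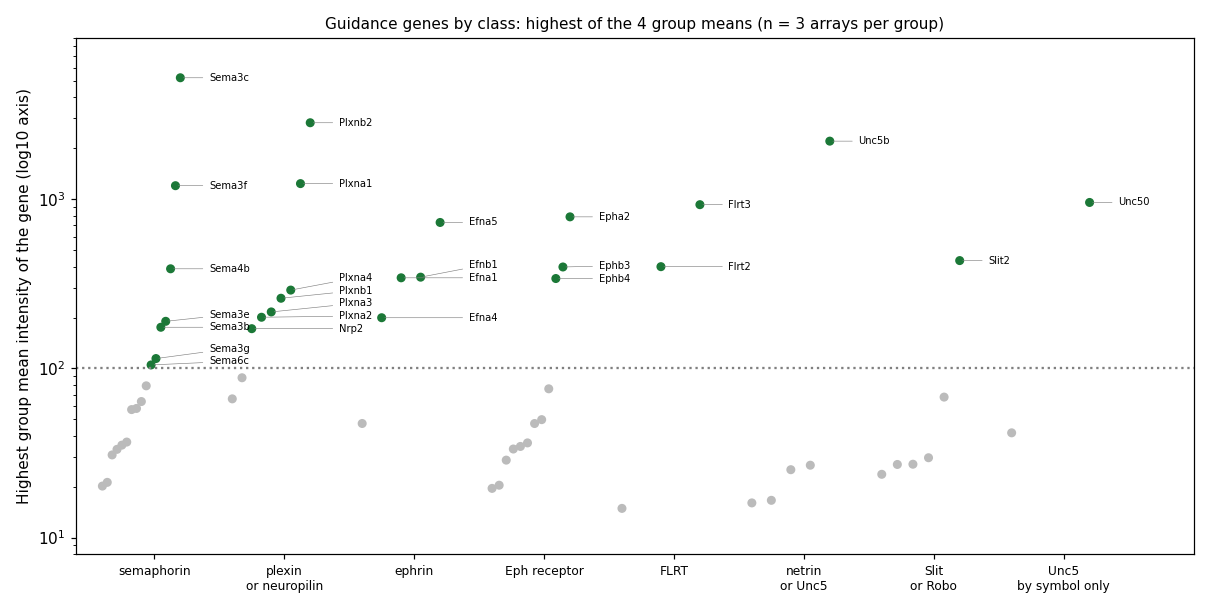
Highest of the 4 group means of each guidance gene (vertical, RMA intensity on a log10 axis) by class (horizontal), n = 3 arrays per group. Green points are genes that reached 100, the dotted line, and grey points those that did not: 7 of 17 semaphorins and 7 of 9 plexins or neuropilins are green, but 3 of 12 Eph receptors and 1 of 6 Slit or Robo genes.

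Promoter sequences of 5 genes are shown. Plxna2, Flrt2 and Flrt3 were called with rapamycin in WB-F344, where the Flrt2 call depended on single arrays. Efnb1 and Unc5b were called between the lines. Each sequence runs from 250 bases before to 50 bases after the annotated start, 5′ to 3′ along the gene. The sequences come from RefSeq on rat build GRCr8, where 45 of the 59 genes matched an entry. The windows are chr13:108691280-108691579 on the plus strand for Plxna2, chr6:120509073-120509372 on the plus strand for Flrt2, chr3:148461356-148461655 on the minus strand for Flrt3, chrX:68297279-68297578 on the plus strand for Efnb1 and chr20:29307221-29307520 on the minus strand for Unc5b. Capitals mark matches, on either strand and with overlaps counted, to the E-box CACGTG, the GC box GGGCGG, the CCAAT box, the TATA box TATAAA and the AP-1 site TGANTCA.
Plxna2: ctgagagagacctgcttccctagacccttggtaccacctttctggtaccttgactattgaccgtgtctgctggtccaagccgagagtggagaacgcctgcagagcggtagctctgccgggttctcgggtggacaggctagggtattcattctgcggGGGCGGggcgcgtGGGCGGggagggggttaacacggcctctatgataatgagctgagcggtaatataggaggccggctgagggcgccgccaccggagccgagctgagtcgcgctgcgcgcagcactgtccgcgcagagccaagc
Flrt2: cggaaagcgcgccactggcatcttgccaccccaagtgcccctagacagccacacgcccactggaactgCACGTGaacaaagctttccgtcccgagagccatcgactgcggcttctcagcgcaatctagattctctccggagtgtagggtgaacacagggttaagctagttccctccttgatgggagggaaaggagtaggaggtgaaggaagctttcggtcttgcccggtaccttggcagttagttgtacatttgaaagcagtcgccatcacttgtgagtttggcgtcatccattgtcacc
Flrt3: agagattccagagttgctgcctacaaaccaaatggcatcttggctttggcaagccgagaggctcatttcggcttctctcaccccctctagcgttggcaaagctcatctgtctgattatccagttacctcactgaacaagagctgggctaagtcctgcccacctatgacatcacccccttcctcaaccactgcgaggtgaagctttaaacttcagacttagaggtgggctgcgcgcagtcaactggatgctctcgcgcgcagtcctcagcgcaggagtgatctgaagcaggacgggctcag
Efnb1: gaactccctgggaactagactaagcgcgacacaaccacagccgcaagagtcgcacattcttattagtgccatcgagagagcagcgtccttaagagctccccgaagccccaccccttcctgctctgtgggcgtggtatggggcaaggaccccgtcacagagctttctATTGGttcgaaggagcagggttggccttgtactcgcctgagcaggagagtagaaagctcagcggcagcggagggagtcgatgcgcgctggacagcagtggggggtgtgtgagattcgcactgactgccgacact
Unc5b: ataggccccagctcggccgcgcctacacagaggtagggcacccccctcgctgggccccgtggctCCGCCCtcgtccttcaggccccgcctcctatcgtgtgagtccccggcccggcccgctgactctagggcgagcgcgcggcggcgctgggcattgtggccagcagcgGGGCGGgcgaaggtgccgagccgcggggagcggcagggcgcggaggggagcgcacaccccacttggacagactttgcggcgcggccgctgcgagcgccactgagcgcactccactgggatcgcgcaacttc

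Plxna2 and Unc5b each held 2 GC boxes in this window, Flrt2 held 1 E-box, Efnb1 held 1 CCAAT box read on the other strand, and Flrt3 held none of the 5 motifs. A GC box was found in 26 of the 45 guidance promoters (57.8%) and in 43.1% of the 19005 promoters of protein-coding genes. An E-box was found in 5 (11.1%) against 7.27% of all promoters, a CCAAT box in 15 (33.3%) against 38.4%, an AP-1 site in 1 (2.22%) against 6.65%, and a TATA box in 0 of the 45 against 13.1%. The median GC content was 60.0% in the guidance promoters and 55.3% in all promoters. The 21 guidance genes that reached 100 had a median of 63.0%, against 59.5% for the 24 that did not. These are matches of letters in a short window and no measure of binding.

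The first question was how the 2 lines differ in these genes. All comparisons are from limma with 4 groups of 3 arrays, and a probe set was called where its Benjamini-Hochberg adjusted p over all tested probe sets was under 0.05 and its fold change at least 1.2. The spread of a probe set was estimated over all 4 groups together, so its rapamycin effects in both lines share 1 standard error. The median SD was 0.0642 and 0.0782 in the WB311 groups and 0.13 and 0.154 in the WB-F344 groups. Leaving out an array of 1 line therefore also changes the p-values of the other. With rapamycin, 28 of 36 tested guidance probe sets were called between WB311 and WB-F344, 19 higher and 9 lower in WB311, where 59.3% of all tested probe sets were called (33.3% higher and 26.0% lower). With vehicle 24 of 35 were called, 16 higher and 8 lower, against 56.0% of all tested (27.9% higher and 28.1% lower). The shares called were 77.8% and 68.6%. The median absolute log2 difference was 0.904 for the guidance probe sets and 0.395 for all tested ones with rapamycin, and 0.645 and 0.36 with vehicle. These medians are not on a like footing, since they include probe sets with 1 line under 100. With rapamycin both lines averaged at least 100 in 23 of 36 guidance probe sets and 11846 of 13949 of all tested. With vehicle they did in 24 of 35 and 11897 of 13871. Called under both treatments in the same direction were 21 probe sets, 14 higher and 7 lower in WB311, and 0 were called in opposite directions. The arrays of the lines did not overlap in 29 of the 36 tested with rapamycin and 27 of the 35 with vehicle, against 72.3% and 66.4% of all tested. A probe set could be tested through 1 line alone, which favours a difference, and 12 of the 28 calls with rapamycin and 10 of the 24 with vehicle had a line averaging under 100. Among the 23 and 24 guidance probe sets that averaged at least 100 in both lines, 16 and 14 were called, against 54.6% and 51.4% of all probe sets with both averages at least 100. Since most tested probe sets of any kind were called between these lines, sizes are given with the values of every array.

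Among the semaphorins, the secreted cues Sema3c, Sema3g and Sema3b were higher in WB311 under both treatments and Sema3e was lower. Sema3c, a class 3 semaphorin that acts through both neuropilins, had 5189, 5553 and 4926 on the rapamycin arrays of WB311 and 4882, 4724 and 4965 on its vehicle arrays, against 2216, 2601 and 2029 with rapamycin and 2376, 2794 and 2009.5 with vehicle in WB-F344. Every WB311 array was above every WB-F344 array, by 1.2 ± 0.12 log2 units with rapamycin and 1.03 ± 0.12 with vehicle (standard error; adjusted p = 1.91e-06 and 8.83e-06, limma). Sema3g, a class 3 semaphorin that binds Nrp2, had 103, 122 and 118 with rapamycin and 105, 105 and 112 with vehicle in WB311, against 21.8, 24.9 and 33.1 with rapamycin and 21.4, 22.0 and 26.5 with vehicle in WB-F344. On this probe set it was thus just above the minimum in WB311 and under it on all WB-F344 arrays, with differences of 2.12 ± 0.14 and 2.21 ± 0.14 (adjusted p = 3.75e-08 and 3.06e-08, limma). The WB-F344 values lie far under 100, so the size is rough. Its other probe set, 1395078_at, was between 51.7 and 77.0 on all arrays, differed by 0.24 and 0.33 and was not tested. Sema3b had 180.4, 173 and 172 with rapamycin and 138, 131 and 158 with vehicle in WB311, against 82.3, 125 and 78.2 with rapamycin and 80.8, 129.7 and 92.9 with vehicle in WB-F344. In both WB-F344 groups the array numbered 2 was the highest. The differences were 0.91 ± 0.19 and 0.52 ± 0.19 (adjusted p = 0.000891 and 0.0291, limma). The vehicle call of Sema3b was lost, at an adjusted p of 0.056 to 0.119, without WB-F344 vehicle array 1 or 3 or without WB311 vehicle array 1 or 3.

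Sema3e, which binds plexin D1 without a neuropilin, had 38.9, 30.0 and 31.2 with rapamycin and 40.3, 35.4 and 38.2 with vehicle in WB311, against 166, 161 and 131 with rapamycin and 228, 228 and 114 with vehicle in WB-F344. All WB311 arrays were below all WB-F344 arrays, with differences of -2.20 ± 0.22 and -2.25 ± 0.22 log2 units (adjusted p = 2.52e-06 and 2.4e-06, limma). The WB311 values lie far under 100, so the size is rough. Plxnd1, its receptor, was under 100 in every group. The membrane-bound Sema4b had 365, 383 and 397 with rapamycin in WB311, against 274, 296 and 264 in WB-F344, a difference of 0.46 ± 0.085 (adjusted p = 0.000463, limma). With vehicle its difference of 0.24 ± 0.085 had an adjusted p of 0.0292 but a fold change of 1.18, under the minimum of 1.2. Sema6c did not pass with either treatment, at -0.08 (95% interval -0.33 to 0.18) and 0.07 (-0.18 to 0.32).

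The 2 probe sets of Sema3f, a class 3 semaphorin that binds Nrp2, gave different answers. With rapamycin 1377892_at was higher in WB311, at 1172, 1234 and 1202 against 924, 896 and 883 in WB-F344 (0.42 ± 0.063, adjusted p = 8.2e-05, limma), while 1380851_at had 741, 787 and 767 against 655, 939.9 and 602 and was not called (adjusted p = 0.696). With vehicle 1380851_at was lower in WB311, at 636, 591 and 704 against 737, 1206 and 777 (-0.46 ± 0.19, adjusted p = 0.0488, limma), and 1377892_at was not called (adjusted p = 0.745). On 1380851_at the WB-F344 array numbered 2 was the highest of its group under both treatments, and without that vehicle array the difference was -0.24 (adjusted p = 0.197). The call was also lost, at 0.0563 to 0.136, without WB-F344 rapamycin array 1 or any 1 WB311 array.

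Of the plexins, Plxna1 and Plxna4 were higher in WB311 and Plxna2 was lower there with rapamycin, while the neuropilin Nrp2 was lower under both treatments. Plxna1, a receptor subunit for class 3 semaphorins, had 1142, 1336 and 1232 with rapamycin and 994, 942 and 1008 with vehicle in WB311, against 460.2, 493 and 489 with rapamycin and 469, 532 and 477 with vehicle in WB-F344. The lines did not overlap, and the differences were 1.36 ± 0.079 and 0.995 ± 0.079 (adjusted p = 1.25e-08 and 2.9e-07, limma). Its other probe sets were under 100 in every group and not tested. They differed by -0.02 and -0.0006 (1375482_at) and by 0.19 and 0.19 (1395453_at). Plxna4, another of these subunits, had 274, 322 and 276 with rapamycin and 258, 221 and 247 with vehicle in WB311, against 48.5, 61.7 and 56.7 with rapamycin and 77.7, 79.6 and 63.8 with vehicle in WB-F344. It was above 100 on every WB311 array and under 100 on every WB-F344 array, with differences of 2.39 ± 0.12 and 1.72 ± 0.12 (adjusted p = 2.34e-09 and 6.22e-08, limma). Its other probe set above the minimum, 1397668_at, differed in the same direction by 1.19 and 0.65. Both probe sets averaged under 100 in WB-F344 and were tested through WB311 alone, so their sizes are rough.

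Plxna3 differed by less, with 147, 142 and 133 with rapamycin and 136, 138 and 144 with vehicle in WB311 on 1376139_at, against 90.8, 105 and 98.0 with rapamycin and 90.4, 104 and 106 with vehicle in WB-F344. The differences were 0.53 ± 0.082 and 0.48 ± 0.082 (adjusted p = 0.000107 and 0.000248, limma). Its brighter probe set 1377077_at was called with vehicle only, at 0.35 ± 0.12 (adjusted p = 0.0256, limma), and lost that call, at an adjusted p of 0.0528 to 0.0995, without vehicle array 1 or 2 of either line, and was at 0.22 without WB-F344 vehicle array 2. Plxnb1, a receptor of class 4 semaphorins, had 249, 269 and 262 with rapamycin and 235, 228 and 226 with vehicle in WB311 on 1384912_at, against 193, 172 and 231 with rapamycin and 196, 149 and 181 with vehicle in WB-F344. The lines did not overlap within a treatment, and the differences were 0.40 ± 0.12 and 0.40 ± 0.12 (adjusted p = 0.00911 and 0.00959, limma). Its probe set 1374444_at was also called under both treatments, at 0.90 and 0.51, where the vehicle call was lost without WB-F344 vehicle array 1 or 3 or WB311 vehicle array 3 (adjusted p of 0.0727 to 0.0793). Plxnb2 was not called, at 0.12 (95% interval -0.10 to 0.33) with rapamycin and 0.23 (0.02 to 0.44) with vehicle.

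Nrp2, the co-receptor preferred by Sema3f, had 74.0, 67.3 and 68.1 with rapamycin and 75.8, 84.7 and 70.6 with vehicle in WB311, all under 100, against 166, 196 and 153 with rapamycin and 118, 184 and 148 with vehicle in WB-F344. Every WB311 array was below every WB-F344 array, with differences of -1.29 ± 0.14 and -0.94 ± 0.14 (adjusted p = 5.96e-06 and 0.000112, limma). It was tested through WB-F344 alone, so the size is rough. The other Nrp2 probe set, 1369824_at, was under 100 in every group, differed by -0.15 and -0.31 and was not tested. Nrp1, the other neuropilin, which also binds VEGF and is not one of the 59 genes, ran the opposite way. It had 619, 605 and 636 with rapamycin and 597, 473 and 523 with vehicle in WB311, against 70.6, 70.8 and 54.5 with rapamycin and 98.9, 143 and 95.5 with vehicle in WB-F344. The differences were 3.26 ± 0.15 and 2.26 ± 0.15 (adjusted p = 1.66e-09 and 6.24e-08, limma). The WB-F344 values with rapamycin lie under 100, so the size there is rough.

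**Figure D2:**
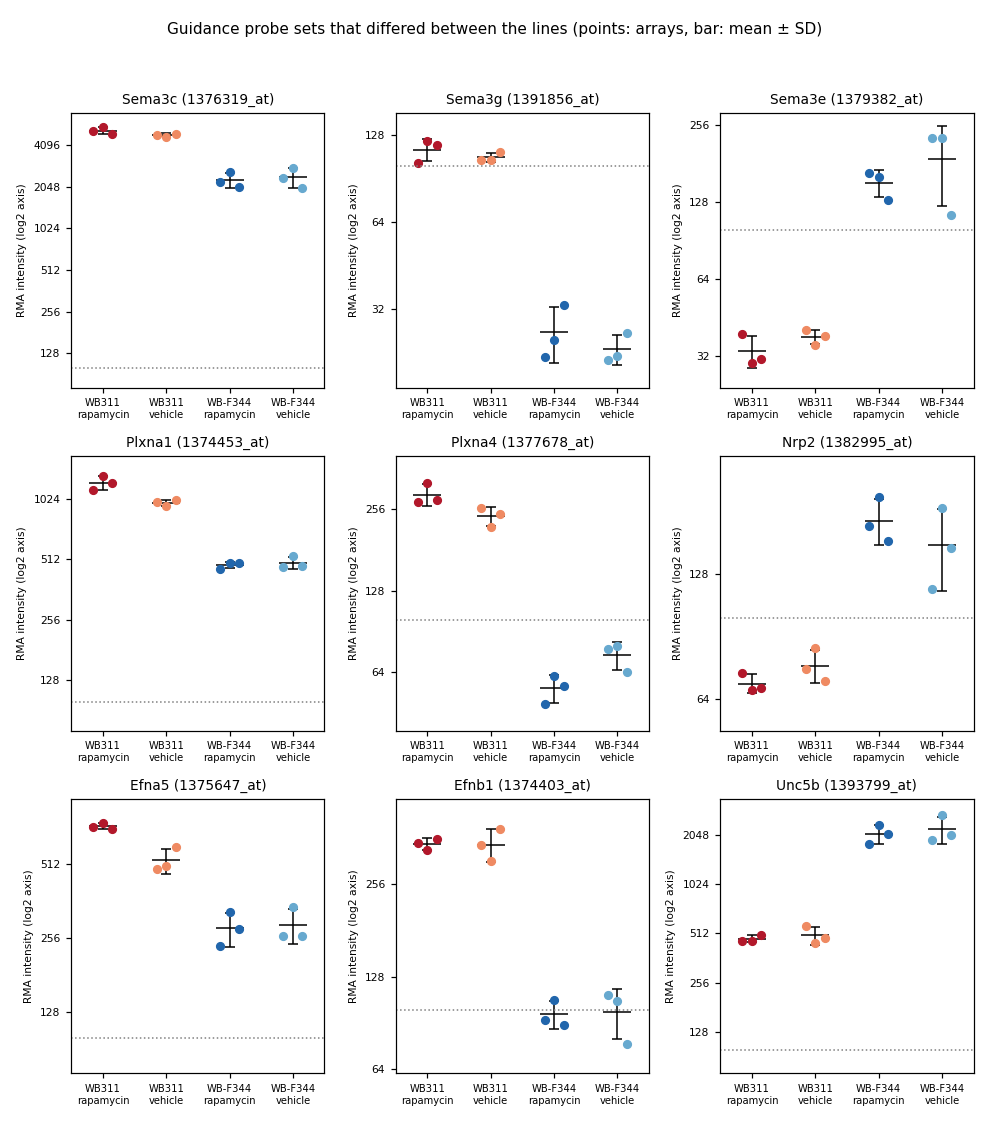
RMA intensity (vertical, log2 axis) on each array (points) of the 4 groups (horizontal) for 9 guidance probe sets that differed between the lines, with bars for mean ± SD, n = 3, and a dotted line at 100. Sema3c, Sema3g, Plxna1, Plxna4, Efna5 and Efnb1 lie higher on all WB311 arrays than on all WB-F344 arrays, and Sema3e, Nrp2 and Unc5b lie lower.

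Ephrins above the minimum were higher in WB311 where they differed, and the Eph receptors were not. Efnb1, a transmembrane ephrin, had 349, 330.0 and 359.7 with rapamycin and 343, 304 and 387 with vehicle in WB311 on 1374403_at, against 92.9, 108 and 89.4 with rapamycin and 112, 107 and 77.6 with vehicle in WB-F344. The lines were far apart, by 1.84 ± 0.14 and 1.82 ± 0.14 log2 units (adjusted p = 1.21e-07 and 1.66e-07, limma), and its dimmer probe set 1369476_at differed by 2.12 and 2.38. In WB-F344 with rapamycin and with vehicle 1374403_at averaged 96.7 and 98.6, and 1369476_at 40.0 and 35.7. Both were tested through WB311 alone, so the sizes are rough. Efna5, a lipid-anchored ephrin, had 723, 751 and 713 with rapamycin and 486, 502 and 599 with vehicle in WB311 on 1375647_at, against 238, 326 and 278 with rapamycin and 261, 342 and 261 with vehicle in WB-F344. The differences of 1.39 ± 0.13 and 0.88 ± 0.13 passed under both treatments (adjusted p = 1.41e-06 and 9.37e-05, limma), as did those of 1369594_at, 0.96 and 0.81. On 1369594_at WB-F344 averaged 66.4 with rapamycin and 57.6 with vehicle, so that size is rough.

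Efna1 and Efna4, also lipid-anchored, were called with rapamycin only. Efna1 had 352, 349.8 and 328 in WB311 with rapamycin and 283, 278 and 260.1 in WB-F344 with rapamycin (0.33 ± 0.064, adjusted p = 0.000676, limma), against 286, 291 and 286 in WB311 and 293, 298 and 313 in WB-F344 with vehicle (adjusted p = 0.386). Its other probe set 1398273_at was called with rapamycin at 0.46 (adjusted p = 0.0301), and that call was lost, at an adjusted p of 0.0503 to 0.118, without WB-F344 rapamycin array 2 or 3 or without any 1 of the WB311 rapamycin arrays. Efna4 had 196, 197 and 205 in WB311 with rapamycin, against 161, 161 and 161 in WB-F344 (0.31 ± 0.061, adjusted p = 0.000737, limma).

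Of the Eph receptors, Ephb3 was lower in WB311, with 219, 242 and 215 with rapamycin and 200.2, 187 and 212 with vehicle, against 292, 324 and 280.0 with rapamycin and 323, 458 and 412 with vehicle in WB-F344. The differences were -0.40 ± 0.12 and -0.98 ± 0.12 (adjusted p = 0.00913 and 1.24e-05, limma). Epha2 did not pass, at 0.02 (95% interval -0.13 to 0.17) with rapamycin and -0.14 (-0.29 to 0.01) with vehicle. Ephb4, a receptor for B-type ephrins, did not pass either, at -0.05 (-0.46 to 0.36) and -0.46 (-0.87 to -0.05).

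The 2 FLRT genes were higher in WB311 with vehicle, and both Unc5b, their receptor, and Slit2 were lower under both treatments. Flrt3 had 914, 934 and 937 with rapamycin and 787, 718 and 768 with vehicle in WB311, against 139.9, 187 and 121 with rapamycin and 366, 434 and 368 with vehicle in WB-F344. The lines did not overlap, and the difference was 2.66 ± 0.13 with rapamycin and 0.96 ± 0.13 with vehicle (adjusted p = 2.73e-09 and 3.82e-05, limma). Flrt2 had 387, 281 and 386 in WB311 with vehicle, against 148, 283 and 138 in WB-F344 (0.95 ± 0.24, adjusted p = 0.00461, limma). The groups overlapped there, since the WB-F344 array numbered 2 reached the lowest WB311 array, and the methods' t-test did not call this difference. With rapamycin Flrt2 was not called (adjusted p = 0.382).

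Unc5b had 464, 459.7 and 504 with rapamycin and 568, 446 and 479.8 with vehicle in WB311 on 1393799_at, against 1803, 2355 and 2053 with rapamycin and 1884, 2685 and 2045 with vehicle in WB-F344. No array of one line came near those of the other, and the differences were -2.11 ± 0.14 and -2.14 ± 0.14 (adjusted p = 4.29e-08 and 4.7e-08, limma). The other Unc5b probe set, 1369235_at, differed by -1.98 and -2.22. Slit2 had 138, 137 and 137 with rapamycin and 157, 123 and 121 with vehicle in WB311 on 1382685_at, against 313, 375 and 309 with rapamycin and 384, 500.3 and 417 with vehicle in WB-F344. It differed by -1.27 ± 0.12 and -1.70 ± 0.12 (adjusted p = 1.41e-06 and 1.13e-07, limma), and 1395986_at by -0.91 and -1.58. On 1395986_at WB311 averaged 84.5 with rapamycin and 78.8 with vehicle, so that size is rough. A further Slit2 probe set, 1369346_at, was under 100 in every group, differed by -0.08 and 0.06 and was not tested. Unc50, which shares only its symbol with the receptors, was not called, with 95% intervals of its difference of -0.19 to 0.17 and -0.20 to 0.16. The summed mesenchymal markers were lower on every WB311 array than on any WB-F344 array, under both treatments. The summed endothelial markers were higher in WB311 (1025 to 1284, mainly Tek, against 108 to 128 in WB-F344). So were the neuronal and glial ones (1038 to 1168 and 522 to 689, mainly Mbp). With 1 line on each side, any marker that differs between the lines goes along with any other difference between them. Not every marker followed its sum. Vim averaged 11300 and 11837 with rapamycin and with vehicle in WB311 and 13109 and 14708 in WB-F344. Syp averaged 125 and 132 in WB311 and 121 and 114 in WB-F344, and Thy1 and Pdgfrb were under 100 in all groups. The part of these markers in the differences between the lines was not tested.

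**Figure D3:**
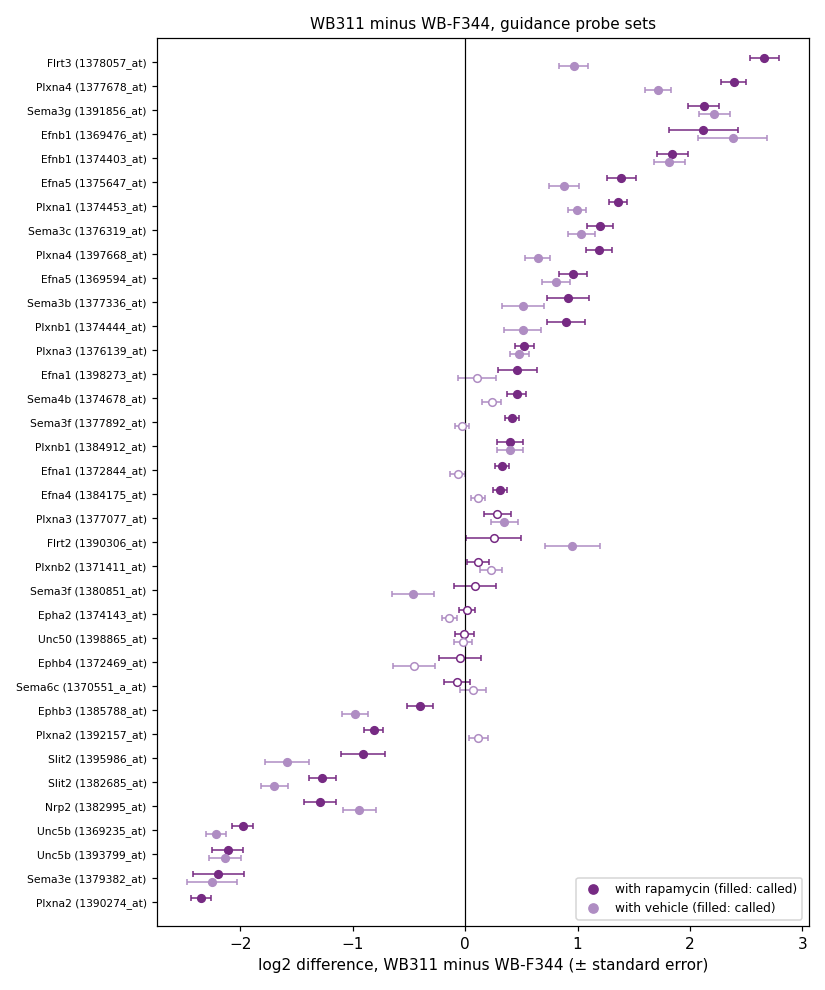
Log2 difference of WB311 minus WB-F344 (horizontal, with standard errors) for guidance probe sets that reached 100, ordered by the difference with rapamycin. Dark points are with rapamycin and light points with vehicle, and filled points were called. Flrt3, at 2.66 with rapamycin and 0.96 with vehicle, and Plxna2 lie apart between the treatments, while Sema3g, Efnb1, Sema3e and Unc5b have nearly the same value in both.

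The next question was which of these genes respond to rapamycin in the resistant WB311 cells. Of 32 tested guidance probe sets, 3 were called, all higher (9.38%), where 3.35% of all tested probe sets were called (1.71% higher and 1.64% lower). The standard errors here also rest on the WB-F344 plates, whose median SD was larger. None of the guidance probe sets was called lower by limma, by the methods' t-test or at an unadjusted p under 0.05, at which 8 were higher. Of all 13135 tested probe sets, 2232 had an unadjusted p under 0.05 in limma, in either direction. Of the 32, 27 had a log2 fold change above 0, with a median of 0.174, while 52.6% of all tested probe sets were above 0 and their median was 0.00907. After cyclic loess 25 of the 32 were above 0, with a median of 0.158. Epha2, a receptor kinase for A-type ephrins, had 771, 819 and 771 with rapamycin, against 572, 600.0 and 605 with vehicle (0.41 ± 0.07, adjusted p = 0.00833, limma). Sema3f had 1172, 1234 and 1202 with rapamycin on 1377892_at, against 969, 922 and 1003 with vehicle (0.32 ± 0.063, adjusted p = 0.0175, limma). Plxna1 had 1142, 1336 and 1232 with rapamycin, against 994, 942 and 1008 with vehicle (0.33 ± 0.079, adjusted p = 0.0403, limma). The groups did not overlap in any of the 3, as in 15 of the 32 guidance probe sets tested and in 38.7% of all tested. Epha2 kept its call whichever array was left out. Sema3f lost its call, at an adjusted p of 0.0531 to 0.0819, without WB311 vehicle array 1 or 2 or any 1 WB311 rapamycin array. Plxna1 lost it, at 0.0537 to 0.178, without any 1 WB311 array, without WB-F344 vehicle array 3 or without WB-F344 rapamycin array 1 or 3. The ephrins Efna1 and Efna5 did not pass, at 0.26 (adjusted p = 0.0519) and 0.47 (adjusted p = 0.0795), although their groups did not overlap. In WB311 the summed hepatic and biliary markers were 6136 to 6357 with rapamycin and 6510 to 6945 with vehicle, and their part in these changes was not tested.

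In the sensitive WB-F344 cells, 6 of 29 tested guidance probe sets were called with rapamycin, 3 higher and 3 lower (20.7%), where 23.0% of all tested probe sets were called (7.74% higher and 15.3% lower). The share called is thus near that of all probe sets. Among the 26 guidance probe sets that averaged at least 100 in both groups, 5 were called, 2 higher and 3 lower. Of all such probe sets 22.0% were called. The remaining call, Plxna2 on 1390274_at, was tested only through the rapamycin group, where it is high. The standard errors here also rest on the WB311 plates, whose median SD was smaller. With each array centred on its median, 3 were higher and 5 lower. Flrt3 was lower and Plxna2 higher. Flrt3, whose protein binds Unc5b and latrophilins, had 139.9, 187 and 121 with rapamycin, against 366, 434 and 368 with vehicle. All rapamycin arrays were below all vehicle arrays, with a change of -1.40 ± 0.13 log2 units (adjusted p = 2.15e-05, limma). Plxna2, a further receptor subunit for class 3 semaphorins, had 189.8, 223 and 189 with rapamycin on its brighter probe set 1392157_at, against 105, 116 and 103 with vehicle. On 1390274_at it had 194, 186 and 196 with rapamycin, against 51.6, 56.7 and 49.9 with vehicle. Both of these probe sets were higher on every rapamycin array, by 0.89 ± 0.084 and 1.87 ± 0.089 (adjusted p = 2.29e-05 and 2.92e-07, limma). The vehicle values of 1390274_at are under 100, so that its size is rough. A further Plxna2 probe set, 1384355_at, was under 100 in every group and not tested. In WB-F344 it averaged 59.3 with rapamycin and 41.0 with vehicle (0.52 ± 0.17). In WB311 with rapamycin Plxna2 was lower than in WB-F344 with rapamycin (-0.81 and -2.35), and 1392157_at did not pass between the lines with vehicle (0.12, 95% interval -0.07 to 0.30).

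Flrt2 moved the opposite way from Flrt3 in WB-F344, with 331, 420.1 and 269.7 with rapamycin, against 148, 283 and 138 with vehicle (0.90 ± 0.24, adjusted p = 0.0173, limma). Its groups overlapped, since array 2 was the highest of each group, and the call was lost without WB-F344 vehicle array 1 (adjusted p = 0.0621), vehicle array 3 (0.0727) or rapamycin array 2 (0.054). Each rapamycin array was above the vehicle array of its number, and with the replicate number as a block the adjusted p was 0.000585. In that fit the difference of the effects of Flrt2 between the lines, -0.70, was also called (adjusted p = 0.0254, and 0.246 without the block). The labels do not say what a replicate number marks, so these values do not show that the arrays are pairs. The block also covers WB311, where deviations of same-numbered arrays correlated at -0.139 to -0.000258. Slit2, whose Robo receptors were under 100, had 313, 375 and 309 with rapamycin on 1382685_at, against 384, 500.3 and 417 with vehicle (-0.38 ± 0.12, adjusted p = 0.0364, limma). Its groups did not overlap, but the call was lost, at an adjusted p of 0.0517 to 0.122, without WB-F344 vehicle array 2 or 3, WB-F344 rapamycin array 1 or 3, or any 1 WB311 rapamycin array. The other Slit2 probe set, 1395986_at, was at -0.56 ± 0.20 (adjusted p = 0.0518), and 0.00384 with the replicate number as a block. Ephb3, a receptor for B-type ephrins, had 292, 324 and 280.0 with rapamycin, against 323, 458 and 412 with vehicle (-0.40 ± 0.12, adjusted p = 0.024, limma). The highest rapamycin array reached the lowest vehicle array, and the call was lost without WB-F344 vehicle array 2 (adjusted p = 0.0659) or 3 (0.0768) or rapamycin array 1 (0.0679) or 3 (0.0861).

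Epha2, called in WB311, had 745, 813 and 774 with rapamycin in WB-F344, against 662, 688 and 611 with vehicle. Its log2 fold change of 0.25 ± 0.07 had an adjusted p of 0.0191 in limma, but a fold change of 1.19, just under the minimum of 1.2. Sema3f on 1380851_at was at -0.30 (adjusted p = 0.272), and with the replicate number as a block at an adjusted p of 0.0143. Of the 29 tested, 19 were below 0, with a median of -0.0822, against a median of -0.0532 over all tested probe sets. After cyclic loess 15 of the 29 were below 0, with a median of -0.0116, against 0.00689. The groups did not overlap in 9 of the 29, against 34.3% of all tested. The median absolute log2 change was 0.15 for guidance probe sets and 0.172 for all tested ones, where in WB311 it was 0.174 and 0.0998. The summed mesenchymal markers were 47754 to 54322 on the WB-F344 arrays with rapamycin and 56736 to 66682 on those with vehicle. The leukocyte markers summed to 1086 to 1334 with rapamycin and 602 to 722 with vehicle, mainly Cd14. The neuronal and glial markers summed to 522 to 617 and 633 to 689, mainly Mbp. The hepatic and biliary markers summed to 7113 to 7945 with rapamycin and 8024 to 9647 with vehicle. The part of these lists in the changes was not tested.

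**Figure D4:**
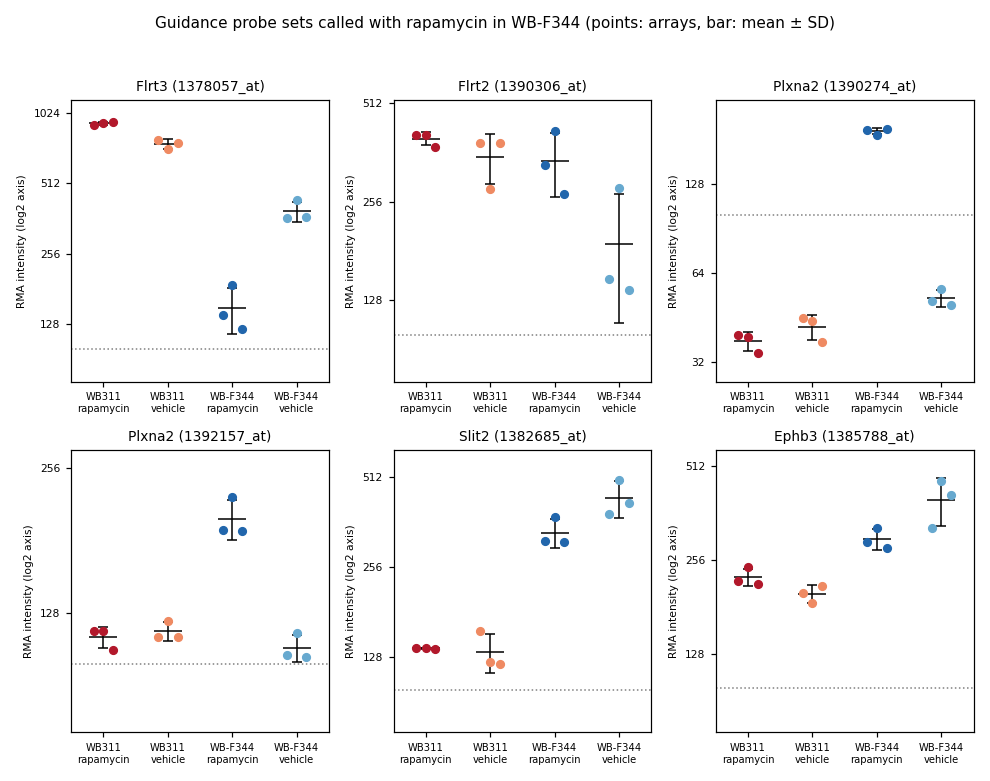
RMA intensity (vertical, log2 axis) on each array (points) of the 4 groups (horizontal) for the 6 guidance probe sets called with rapamycin in WB-F344, with bars for mean ± SD, n = 3, and a dotted line at 100. In WB-F344, Flrt3 lies lower and both Plxna2 probe sets higher on all rapamycin arrays than on all vehicle arrays, while Flrt2 and Ephb3 overlap between the treatments.

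Whether the response to rapamycin differed between the lines was tested by subtracting the effect in WB-F344 from that in WB311. Of 36 guidance probe sets tested, 7 were called, 5 higher and 2 lower (19.4%), where 10.0% of all tested probe sets were called (6.87% higher and 3.15% lower). With the replicate number as a block 16 were called, 13 higher and 3 lower, and the 7 were among them. With both WB-F344 arrays numbered 2 left out 14 were called. The shares of all probe sets called in these fits are not given here, so these counts cannot be set against the 10.0%. Flrt3 differed by 1.70 ± 0.18 (adjusted p = 0.000223, limma). It was lower in WB-F344 with rapamycin, and its change in WB311, 0.29 ± 0.13, did not pass (adjusted p = 0.275). Plxna2 differed by -2.03 ± 0.13 on 1390274_at and -0.93 ± 0.12 on 1392157_at (adjusted p = 8.87e-06 and 0.000542, limma). It was higher in WB-F344 with rapamycin, while in WB311 1392157_at had 117, 117 and 107 with rapamycin, against 114, 123 and 114 with vehicle. These are the largest of the differences called among the guidance probe sets.

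Sema3f differed by 0.44 ± 0.088 on 1377892_at (adjusted p = 0.00765, limma). It rose in WB311, while in WB-F344 it had 924, 896 and 883 with rapamycin, against 962, 1011 and 972 with vehicle (-0.12, adjusted p = 0.174). The other Sema3f probe set, 1380851_at, was at 0.55 and did not pass (adjusted p = 0.234, limma). Efna1 differed by 0.39 ± 0.091 on 1372844_at (adjusted p = 0.0163, limma), with neither effect called on its own, 0.26 in WB311 and -0.14 in WB-F344. Its other probe set, 1398273_at, was at 0.36 ± 0.24 and did not pass (adjusted p = 0.424, limma). Plxna4 differed by 0.67 ± 0.16 (adjusted p = 0.0213, limma), with effects of 0.26 in WB311 and -0.41 in WB-F344, where its averages of 55.6 with rapamycin and 73.7 with vehicle were under 100 and it was not tested alone. It entered the test through WB311, so the size is rough. That call was lost without WB-F344 rapamycin array 1 (adjusted p = 0.0515), WB311 vehicle array 2 (0.0599) or WB311 rapamycin array 2 (0.0605). The other Plxna4 probe set, 1397668_at, was at 0.54 and did not pass (adjusted p = 0.0513, limma). Ephb3 differed by 0.58 ± 0.17 (adjusted p = 0.0455, limma), a call that was lost, at an adjusted p of 0.059 to 0.113, without any 1 array other than WB-F344 vehicle array 1 and WB-F344 rapamycin array 2. Epha2 was called in WB311 only, but the difference of its effects did not pass (0.16, 95% interval -0.06 to 0.37).

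**Figure D5:**
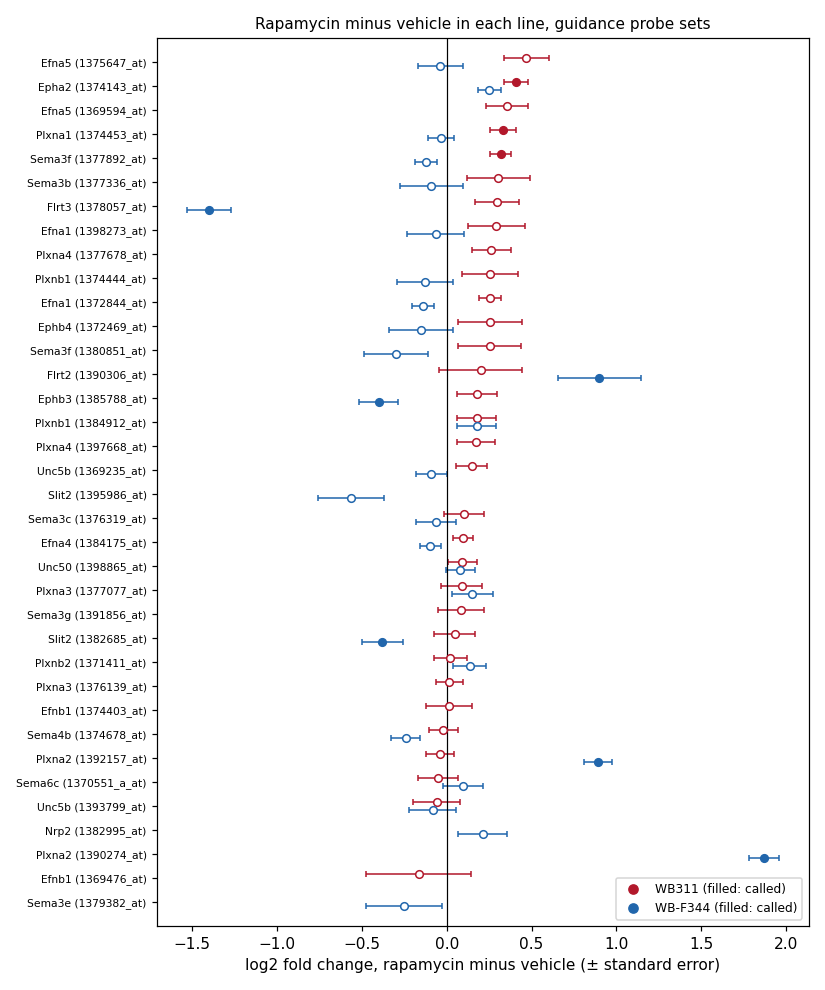
Log2 fold change of rapamycin minus vehicle (horizontal, with standard errors) in WB311 (red) and WB-F344 (blue) for guidance probe sets that reached 100, ordered by the change in WB311. Filled points were called, and a missing point was under 100 in both groups of that line. The Flrt3 points, at 0.29 in WB311 and -1.40 in WB-F344, and those of Plxna2 on 1392157_at, at -0.04 and 0.89, lie farther apart than most.

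Partners and effectors of these receptors were followed through lists of 19 co-receptors, other cues and binding partners and of 54 effectors, in which 16 and 51 genes had a probe set. Between the lines with rapamycin, 28 of the 44 tested genes of both lists were called, 14 higher and 14 lower in WB311, and with vehicle 26 of 45, 10 higher and 16 lower. These shares are near those of all tested probe sets, of which 59.3% were called with rapamycin and 56.0% with vehicle. The median log2 difference was -0.03 over the partners and 0.0658 over the effectors with rapamycin, against 0.062 over all tested probe sets, and -0.121 and -0.123 with vehicle, against 0.0181. The plexin-binding GTPase Rnd1 had 101, 93.4 and 101 with rapamycin and 82.9, 79.1 and 97.9 with vehicle in WB311, against 1108, 1005 and 1052 with rapamycin and 772, 700.5 and 661 with vehicle in WB-F344 (-3.42 ± 0.092 and -3.04 ± 0.092, adjusted p = 1.04e-11 and 3.58e-11, limma). Rnd1 averaged 98.3 with rapamycin and 86.6 with vehicle in WB311. It was thus tested through WB-F344 alone, and its size is rough. The latrophilin Adgrl2, a partner of FLRT proteins, was also lower in WB311, with 137, 143 and 147 with rapamycin and 158, 129 and 161 with vehicle in WB311, against 684, 916 and 658 with rapamycin and 715, 1011 and 816 with vehicle in WB-F344 (-2.39 and -2.50). Beside the higher Flrt3, both Unc5b and Adgrl2, which bind it, were thus lower in WB311.

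With rapamycin in WB-F344, 11 of 44 tested genes of these lists were called, 4 higher and 7 lower, where 23.0% of all tested probe sets were called (7.74% higher and 15.3% lower). After cyclic loess 16 were called, 9 higher and 7 lower. The median change was -0.161 over the partners and -0.0656 over the effectors, against -0.0532 over all tested probe sets. Rras, a GTPase on which plexins act, was higher by 0.53 ± 0.079 (adjusted p = 0.000506, limma), Rnd1 by 0.57 and Rasa1, a Ras GTPase-activating protein that binds Eph receptors, by 0.84. Lower were Enah, an actin regulator (-0.39), and Nrp1 (-0.77). In WB311 1 of 41 was called, where 3.35% of all tested probe sets were, namely the GTPase Rnd3, with 2959, 2859 and 2899.9 with rapamycin against 2164, 2239.8 and 2215 with vehicle (0.40 ± 0.07, adjusted p = 0.00933, limma). That call was lost without WB311 vehicle array 1, where the lists held 0 calls. The difference of the effects was called in 7 of 45 (5 higher and 2 lower, and after cyclic loess 6 and 4), where 10.0% of all tested probe sets were called (6.87% higher and 3.15% lower). Among the 7 were Pak1, a kinase of Rac and Cdc42 (0.71 ± 0.12, adjusted p = 0.00336, limma), Rnd3 (0.56), Nrp1 (0.998) and the cofilin phosphatase Ssh1 (0.71). Nrp1 had values under 100 in WB-F344 with rapamycin, so its sizes there are rough.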

How the data were processed

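RNA from 12 plates was hybridised to Affymetrix Rat Genome 230 2.0 arrays. The authors deposited linear intensity values normalized with Robust Multiarray Average, whose version is not given in the sources used here; their log2 was taken. The number of arrays, 3 per group, limits the precision. Symbols came from the platform annotation, and all 59 were found in RefSeq by gene identifier. All 31042 probe sets other than 57 controls were fitted in R 4.3.3 with limma 3.58.1 as 4 groups, tested where either group averaged 100 or more, and called at a Benjamini-Hochberg adjusted p under 0.05 and a fold change of at least 1.2. The fit was tested on simulated data. These thresholds follow the study's methods, whose t-test and order of filters were run as alternatives, beside other normalizations, filters, a replicate block and leaving out each array.

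Members and lists were chosen with earlier results of these data known. Values of every array are given for member genes called with rapamycin or in the difference of the effects and for up to 12 rises and 12 falls between the lines, and from the lists of partners and effectors up to 4 genes per comparison of smallest p; Nrp1 in WB-F344 was named after its values were seen, and the result of 1 listed gene is not reported here. A gene stands by its brightest probe set unless only another was called.

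Replicate numbers were checked as pairs over 14214 probe sets. In WB-F344 the deviations of rapamycin and vehicle arrays of the same number correlated at 0.561 to 0.871, and arrays 1 and 3 crossed at 0.581 and 0.605. Array 2 of either treatment crossed with arrays 1 and 3 of the other at -0.799 to -0.672. In WB311 the same numbers gave -0.139 to -0.000258. The labels do not say what a number marks.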

Additional observations from a re-analysis of the deposited data

Results flagged for a closer look

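The response to rapamycin differed between the lines, by the test of the difference itself, for 7 guidance probe sets. As log2 effect in WB311 minus that in WB-F344, these were Flrt3 at 1.70, Plxna2 at -2.03 on 1390274_at and -0.93 on 1392157_at, Plxna4 at 0.67, Ephb3 at 0.58, Sema3f at 0.44 and Efna1 at 0.39. Their adjusted p in limma was 0.000223 for Flrt3, 8.87e-06 and 0.000542 for Plxna2, 0.0213 for Plxna4, 0.0455 for Ephb3, 0.00765 for Sema3f and 0.0163 for Efna1. Plxna4 averaged under 100 in both WB-F344 groups and Plxna2 on 1390274_at in WB-F344 with vehicle and in WB311, so their sizes are rough. Other tested probe sets of Efna1 (1398273_at), Sema3f (1380851_at) and Plxna4 (1397668_at) did not pass this test (adjusted p = 0.424, 0.234 and 0.0513, limma).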

How the results depend on the processing

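The alternatives were run for every call among the guidance probe sets and the partners and effectors, and 0 of these calls reversed. Of the guidance calls, those kept under every alternative that tested them were 3 of 6 with rapamycin in WB-F344 (Flrt3 and both Plxna2 probe sets), 1 of 3 in WB311 (Epha2), 5 of 7 for the difference of the effects, 25 of 28 between the lines with rapamycin and 19 of 24 with vehicle. The counts of guidance probe sets moved as follows. Shares over all probe sets are not given for these alternatives, so the counts show only how the guidance calls move. In WB-F344, against 6, the methods' t-test and a fit of only the 2 groups compared each called 3. In WB311, against 3, a fold change filter before the adjustment called 5, the methods' t-test 8, only the 2 groups compared 8 and array weights 6. The t-test and the fit of only the 2 groups take the spread from those groups alone. For the difference of the effects, against 7, the fold change filter first and array weights each called 11. Between the lines an average of at least 200 left 17 of 28 with rapamycin, and no filter gave 39 in place of 24 with vehicle, many of them under 100. Leaving both WB-F344 arrays numbered 2 out, chosen after seeing the data, gave 8 in WB311 and 14 for the difference. Leaving out 1 array at a time gave 4 to 7 in WB-F344, 1 to 4 in WB311, 5 to 9 for the difference, 27 to 29 between the lines with rapamycin and 20 to 25 with vehicle. Efna1 and Efna4 fell under the fold minimum between the lines with rapamycin after cyclic loess (0.26 and 0.25 log2 units).

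Of the calls among partners and effectors, 7 of 11 in WB-F344, 0 of 1 in WB311, 4 of 7 for the difference, 25 of 28 between the lines with rapamycin and 21 of 26 with vehicle were kept under every alternative that tested them. Nrp1 and Rasa1 lost their calls in WB-F344 in the methods' t-test. For these lists, WB311 gave 3 calls after cyclic loess, 5 each with the fold change filter first, the t-test, only the 2 groups, array weights or without both arrays numbered 2, against 1. The difference of the effects gave 12 with the fold change filter first and 11 without both arrays numbered 2, against 7. With 1 array left out the ranges were 10 to 13 in WB-F344, 0 to 4 in WB311, 4 to 7 for the difference, 26 to 32 between the lines with rapamycin and 24 to 27 with vehicle.

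With the replicate number as a block, guidance counts were 8 in WB-F344, 5 in WB311, 16 for the difference, 28 between the lines with rapamycin and 25 with vehicle, and the lists gave 4 in WB311 and 13 for the difference. Every call of the fit without the block was kept. The share of all probe sets called with the block is not given here. In WB311 and between the lines the samples share only a number. The cause of these moves was not tested. Intensities under 100 limit 61 of the 97 probe sets.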
